A study of Homo sapiens with 3 samples.

Results

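The EGF receptor family and its ligands were followed as 10 genes in UM-UC-3 cells, a human bladder cancer line in wide use. They comprise 4 receptors (EGFR, ERBB2, ERBB3 and ERBB4) and 6 ligands (AREG, EREG, BTC, EPGN, HBEGF and TGFA). The genes were chosen by name, and each name was found on 1 row among the 50867 genes of the deposited table. The group shBLACAT2 (n = 2) holds 1 library for each of 2 hairpins that target BLACAT2, a long non-coding RNA, called shRNA 1 and shRNA 2. The group shControl (n = 1) carries a scramble hairpin. Cells of both groups had been infected with hairpin lentivirus in the presence of polybrene and kept under puromycin for 2 weeks before polyA+ RNA was sequenced. The labels name neither repeated cultures nor single-cell clones, so the p-values below measure only the spread between these libraries.

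EGFR, ERBB2, ERBB3 and ERBB4 are receptor tyrosine kinases that pair with one another when a ligand binds, and signal through the RAS to ERK and PI3K to AKT cascades. Their ligands are made as membrane-bound precursors that metalloproteases, chiefly ADAM17 and ADAM10, cut from the cell surface. AREG, EPGN and TGFA bind EGFR, while EREG, BTC and HBEGF bind both EGFR and ERBB4. ERBB2 has no known ligand of its own, and ERBB3 has little kinase activity and acts through its partners. In the urothelium the family is known for its part in repair after injury, and ERBB2 and ERBB3 are altered in a share of bladder cancers.

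The libraries held 17670199 counts for shRNA 1, 16216947 for shRNA 2 and 16424422 for shControl. LINC00958, the symbol of BLACAT2, had 816 and 1062 counts with shRNA 1 and shRNA 2, against 938 in shControl. Scaled for library size this was 0.735 times the shControl level with shRNA 1 (95% counting interval 0.668 to 0.808) and 0.996 times with shRNA 2 (0.911 to 1.09). With shRNA 2 the target was thus not measurably lower, and the values below compare libraries by their labels. Over both hairpin libraries, edgeR's test against shControl gave LINC00958 a log2 fold of −0.21 and an adjusted p of 0.913. Of 13 urothelial and carcinoma markers 10 were tested, 3 of them higher by 2-fold or more in both hairpin libraries and 0 lower (5.29% and 4.5% of all genes tested), and their summed level was 4727 and 2709 CPM (TMM-scaled counts relative to library size) with shRNA 1 and shRNA 2, against 3730 CPM in shControl. The terminal urothelial marker KRT20 was at 0 in all 3 libraries, and the uroplakin genes UPK1A and UPK3A had at most 1 count. Of the other uroplakin genes of the list, UPK1B had 2311 and 923 counts with shRNA 1 and shRNA 2, against 306 in shControl, and UPK2 had 108 and 104, against 35. GATA3, CDH1 and EPCAM were also above shControl with both hairpins. The keratin genes went another way, with scaled ratios to shControl of 0.857 and 0.583 for KRT7 and 0.838 and 0.696 for KRT18. The ratios were 0.998 and 0.269 for KRT5, 1.11 and 0.703 for KRT8, and 2.16 and 0.813 for KRT19. Of 7 mesenchymal markers, 6 were lower by 2-fold or more with both hairpins, against 4.5% of all genes tested, and the list summed to 16997 and 15776 CPM with shRNA 1 and shRNA 2, against 60646 CPM in shControl, of which FN1 made up most. The part of these marker differences in the results below was not tested, and in bulk RNA fewer cells of a type cannot be told apart from less RNA per cell. Summed markers of leukocytes, endothelium and fibroblasts stayed at or below 8.05 CPM in every library.

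Of the 6 ligands, the 4 that lie together on chromosome 4 were several-fold higher in both hairpin libraries. Amphiregulin (AREG), an EGFR ligand of epithelia, had 1654 and 2205 counts with shRNA 1 and shRNA 2, against 272 in shControl. Epiregulin (EREG), a low-affinity ligand, had 481 and 709 counts, against 35 in shControl. Betacellulin (BTC) had 212 and 239 counts with the hairpins and 22 in shControl. For these 3 genes both hairpin libraries stood far above the control library, and shRNA 2 was the higher of the pair, for BTC within counting error (shRNA 2 over shRNA 1 1.17, interval 0.971 to 1.42). Epigen (EPGN), an EGFR ligand described as an epithelial mitogen, had 118 and 68 counts, against 4 in shControl, with shRNA 1 the higher of the pair.

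Scaled for library size with edgeR's TMM factors, AREG stood 5.14-fold above shControl with shRNA 1 (95% counting interval 4.52 to 5.86) and 7.13-fold above it with shRNA 2 (6.28 to 8.12). EREG stood 11.6-fold (8.23 to 16.9) and 17.8-fold (12.7 to 25.8) above it, and BTC 8.14-fold (5.24 to 13.3) and 9.55-fold (6.17 to 15.5). EPGN stood 24.9-fold (9.48 to 93.0) and 15.0-fold (5.58 to 56.4) above it, with wide intervals because the control held only 4 counts. The intervals cover counting error alone, and both ratios of a gene share the same control library.

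Over the hairpin libraries the log2 fold was 2.59 ± 0.33 for AREG, 3.78 ± 0.44 for EREG, 3.04 ± 0.16 for BTC and 3.77 ± 0.51 for EPGN (SD, n = 2), on log2 CPM with a prior count of 2. Each of these means was larger than its spread between the hairpins. Both folds of a gene share the control library, so this spread holds no variation of the control. In edgeR's quasi-likelihood test of both hairpin libraries against the control, adjusted over all 15132 genes tested, none of the 4 passed 0.05. The adjusted p was 0.0854 for EREG (edgeR log2 fold 3.87, SE 0.53), 0.102 for AREG (2.62, SE 0.41), 0.134 for BTC (3.14, SE 0.57) and 0.168 for EPGN (4.28, SE 0.87). DESeq2, run on the same counts, put all 4 past the threshold, with adjusted p of 7.19e-08 for EREG, 9.64e-06 for AREG, 0.00179 for BTC and 0.0146 for EPGN. EPGN reached the expression minimum for testing only through the hairpin libraries, so its p-values are not read as support. Over the other settings of edgeR and limma the adjusted p stayed above the threshold and ran from 0.0733 to 0.747 for EREG and from 0.0888 to 0.747 for AREG.

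**Figure D1:**
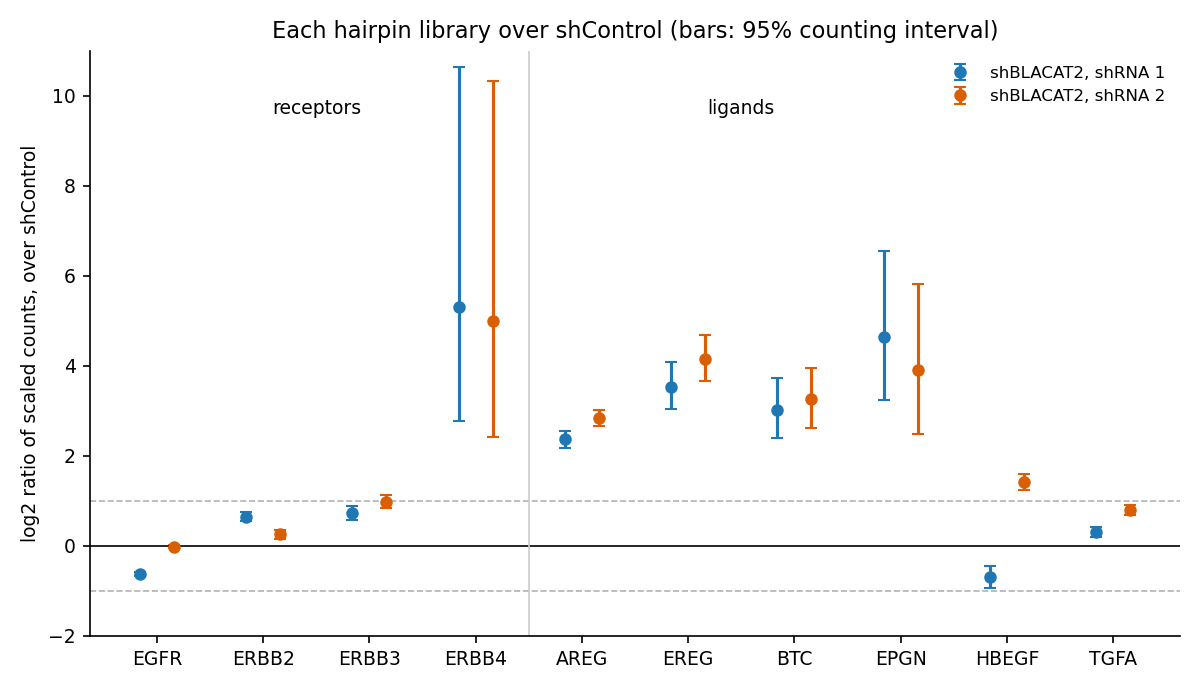
Log2 ratio of scaled counts of each hairpin library over shControl for the 4 receptors and 6 ligands, with shRNA 1 as blue and shRNA 2 as orange points and 95% counting intervals as bars. AREG, EREG, BTC and EPGN lie well above the dashed 2-fold line with both hairpins, ERBB4 does so with wide bars from 1 control count, and HBEGF lies on opposite sides of 0.

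The 4 ligand genes stand within 486 kb of chromosome 4 (hg38, chromosome 4, 74308473 to 74794686). EPGN (74308473 to 74315307), EREG (74365143 to 74388751) and AREG (74445134 to 74455009) run on the plus strand, and BTC (74744759 to 74794686) on the minus strand. The start of EREG lies 56.7 kb beyond that of EPGN, and the start of AREG 80.0 kb beyond that of EREG. The annotation places 2 further genes between EPGN and BTC, both antisense RNAs and both too low to be tested. AC142293.3 had 17 and 11 counts with shRNA 1 and shRNA 2 and 0 in shControl, while RP11-727M10.1 had 1, 1 and 0 counts. With a floor of 3 counts put in place of the control's 0, the scaled ratios of AC142293.3 were 4.79 and 3.22. These are not lower bounds, since they leave out counting error in the hairpin libraries. With the control at 0, the counting intervals of AC142293.3 began at 3.49 with shRNA 1 and 2.21 with shRNA 2.

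Tested genes on either side of the ligands did not share their size of difference with both hairpins. Within 1000 kb of the outermost ligand genes, a window set after the values were seen, 14 other genes were tested, and their median log2 folds were 0.17 with shRNA 1 and 0.42 with shRNA 2. None of the 14 was higher by 2-fold or more with both hairpins, and 2 were lower by that size, the chemokine gene CXCL6 (log2 folds −2.04 and −1.57) and C4orf26 (−5.62 and −5.79). The nearest tested neighbours were MTHFD2L on the EPGN side, with 141 and 127 counts against 85 in shControl (log2 folds 0.48 and 0.39), and PARM1 on the BTC side, with 80 and 72 counts against 39 (0.77 and 0.67). Of the 14, RASSF6 was higher by more than 2-fold with shRNA 2 alone, with 29 and 110 counts against 17 (0.48 and 2.39). CXCL3, too low to be tested, had 21 and 19 counts with shRNA 1 and shRNA 2, against 6, or scaled ratios of 2.96 and 2.79. All neighbours in this paragraph were named after their values were seen.

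**Figure D2:**
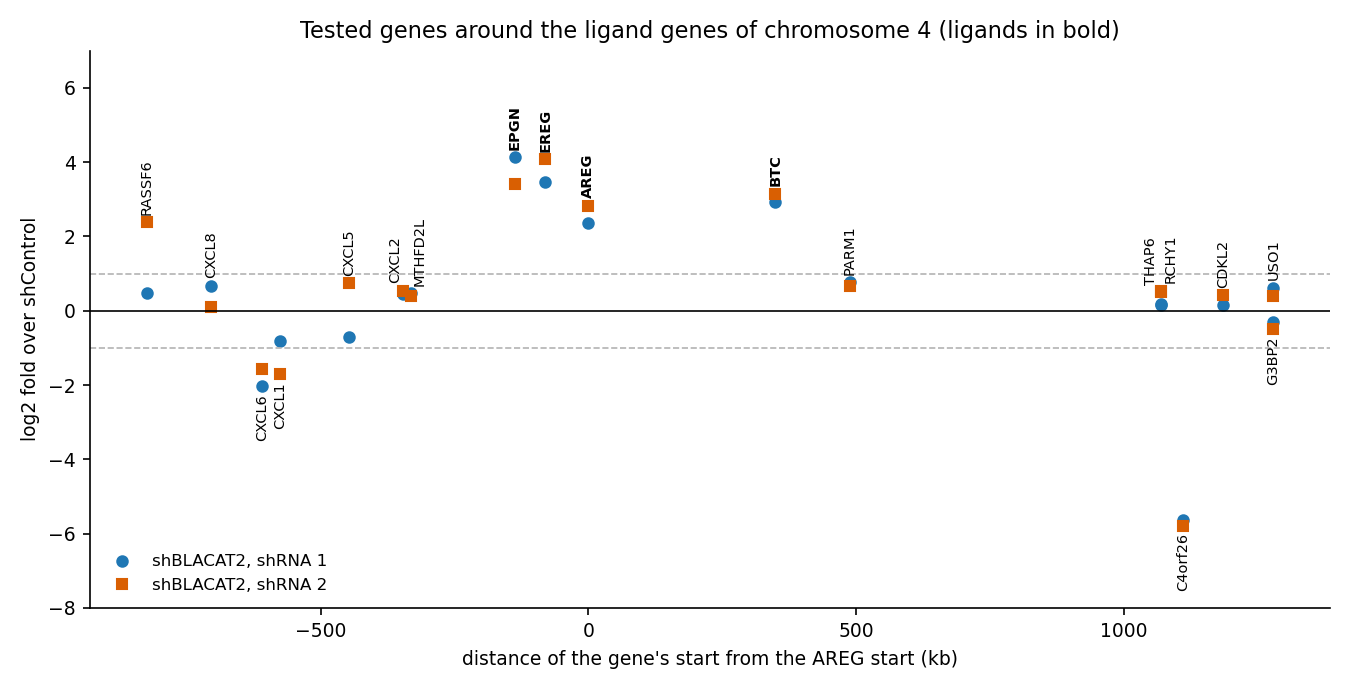
Log2 fold over shControl of every tested gene within 1000 kb of the ligand genes of chromosome 4, by the distance of its start from the AREG start in kb, with shRNA 1 as circles and shRNA 2 as squares. The 4 ligands, in bold, form the only group of genes above the upper 2-fold line with both hairpins, between MTHFD2L and PARM1, and C4orf26 lies at −5.62 and −5.79.

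The bases just upstream of these 4 genes are shown because the genes stand side by side and were all higher with both hairpins. They are RefSeq sequences of GRCh38.p14, read 5′ to 3′ on each gene's strand and ending before both the RefSeq start and the gene's deposited start: chr4:74308220-74308469 for EPGN and chr4:74364895-74365142 for EREG, chr4:74444886-74445133 for AREG (all plus strand) and chr4:74794687-74794773 for BTC (minus strand). Capitals mark matches to 6 motifs, searched on both strands: AP-1 (TGANTCA), the E-box of ZEB and Snail factors (CAGGTG), TEAD (GGAATG), Sp1 (GGGCGG), ETS (CCGGAAG) and the cAMP response element (TGACGTCA), the last added after the sequences were seen.
EPGN: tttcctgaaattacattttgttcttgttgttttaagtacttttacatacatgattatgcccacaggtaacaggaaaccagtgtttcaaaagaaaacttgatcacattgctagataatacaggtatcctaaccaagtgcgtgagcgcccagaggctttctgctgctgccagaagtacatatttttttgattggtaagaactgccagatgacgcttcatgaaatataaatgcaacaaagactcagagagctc
EREG: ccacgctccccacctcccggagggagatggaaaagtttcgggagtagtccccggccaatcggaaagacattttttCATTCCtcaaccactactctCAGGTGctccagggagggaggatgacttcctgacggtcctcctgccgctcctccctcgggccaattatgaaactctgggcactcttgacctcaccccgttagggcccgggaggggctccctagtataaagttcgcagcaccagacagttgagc
AREG: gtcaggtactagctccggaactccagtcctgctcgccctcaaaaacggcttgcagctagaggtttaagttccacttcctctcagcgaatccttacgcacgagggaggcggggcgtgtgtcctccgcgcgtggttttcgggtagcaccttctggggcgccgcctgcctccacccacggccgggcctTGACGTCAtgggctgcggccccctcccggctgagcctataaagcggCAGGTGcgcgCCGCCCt
BTC: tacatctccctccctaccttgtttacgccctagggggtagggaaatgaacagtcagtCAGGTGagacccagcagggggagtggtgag

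The AREG stretch held a cAMP response element whose first base lies 63 bases before the end of the window, an E-box at 17 bases and an Sp1 match at 7 bases. The EREG stretch held a TEAD match at 173 bases and an E-box at 153 bases, the BTC stretch an E-box at 30 bases, and the EPGN stretch none of these letters. In the full 250-base windows an E-box also occurred for HBEGF and TGFA, the ligands outside this cluster. Of 34788 distinct 250-base upstream windows in the RefSeq table, 1.64% held the cAMP response element, 17.5% the E-box, 42.6% the Sp1 motif, 11.9% the TEAD motif, 6.59% the AP-1 motif and 8.50% the ETS motif. The printed stretches are 250, 248, 248 and 87 bases long, since bases inside a gene's deposited span were left off. A match is a description of these letters and says nothing of binding.

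The ligands outside this cluster differed less, or differed between the hairpins. Transforming growth factor alpha (TGFA; chromosome 2, 70447280 to 70554193), a high-affinity EGFR ligand, had 1485 and 1991 counts with shRNA 1 and shRNA 2, against 1015 in shControl. Scaled, it was 1.24 times (1.14 to 1.34) and 1.73 times (1.60 to 1.86) the control, a mean log2 fold of 0.55 ± 0.34 (SD, n = 2), and edgeR gave an adjusted p of 0.730. Both hairpin libraries lay above the control, by less than 2-fold.

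Heparin-binding EGF-like growth factor (HBEGF; chromosome 5, 140332843 to 140346631) had 251 counts with shRNA 1 and 1047 with shRNA 2, against 344 in shControl. The control thus lay between the hairpin libraries. The scaled ratio was 0.617 with shRNA 1 (0.522 to 0.728) and 2.68 with shRNA 2 (2.37 to 3.03), and shRNA 2 stood 4.34-fold above shRNA 1 (3.78 to 5.00). The mean log2 fold of 0.36 ± 1.49 (SD, n = 2) lay within the spread of the pair, with an edgeR adjusted p of 0.885. Signs opposed in this way, each at least 0.5 on the log2 scale, were found for 2.48% of all genes tested, a size set after the values were seen.

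Among the receptors, EGFR, ERBB2 and ERBB3 differed from shControl by less than 2-fold with either hairpin, and ERBB4 was counted mostly in the hairpin libraries. EGFR (chromosome 7, 55019021 to 55256620), the receptor of all 6 ligands, had 7915 and 11555 counts with shRNA 1 and shRNA 2, against 10322 in shControl. Its scaled ratio was 0.648 with shRNA 1 (0.629 to 0.667) and 0.985 with shRNA 2 (0.959 to 1.01). The mean log2 fold of −0.32 ± 0.43 (SD, n = 2) was smaller than its spread, the adjusted p by edgeR was 0.907, and with library totals as the scaling the shRNA 2 value was 0.18 and not −0.02, so no direction is given for EGFR with shRNA 2.

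ERBB2 (chromosome 17, 39687914 to 39730426), the partner preferred by the other receptors, had 2780 and 2028 counts with the hairpins and 1501 in shControl, or 1.57 times (1.47 to 1.67) and 1.19 times (1.11 to 1.27) the control when scaled. ERBB3 (chromosome 12, 56079857 to 56103505), a receptor of neuregulins, had 988 and 1136 counts with the hairpins and 507 in shControl, or 1.65 times (1.48 to 1.84) and 1.97 times (1.77 to 2.19). Both genes were higher with both hairpins by less than 2-fold. The mean log2 folds were 0.45 ± 0.28 for ERBB2 and 0.85 ± 0.18 for ERBB3 (SD, n = 2), and edgeR's adjusted p was 0.795 and 0.469. ERBB2 overlaps MIEN1 and PGAP3 on the opposite strand, which had at most 12.7% of its counts, and strand use in the counting is not stated, so some ERBB2 reads may belong to them.

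ERBB4 (chromosome 2, 211375717 to 212538841), a receptor that also binds neuregulins, had 47 counts with shRNA 1 and 36 with shRNA 2, against 1 in shControl. The scaled ratios were 39.7 (6.79 to 1602) and 31.7 (5.33 to 1285). The control value rests on 1 read, and the adjusted p was 0.172 by edgeR and 0.169 by DESeq2. At 0.120 and 0.0998 FPKM with the hairpins, against 0.00274 FPKM in shControl, ERBB4 was the lowest of the 10 genes in every library. Both ERBB4 and EPGN reached the expression minimum of 1 CPM, as a mean over the libraries, only through the hairpin libraries.

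**Figure D3:**
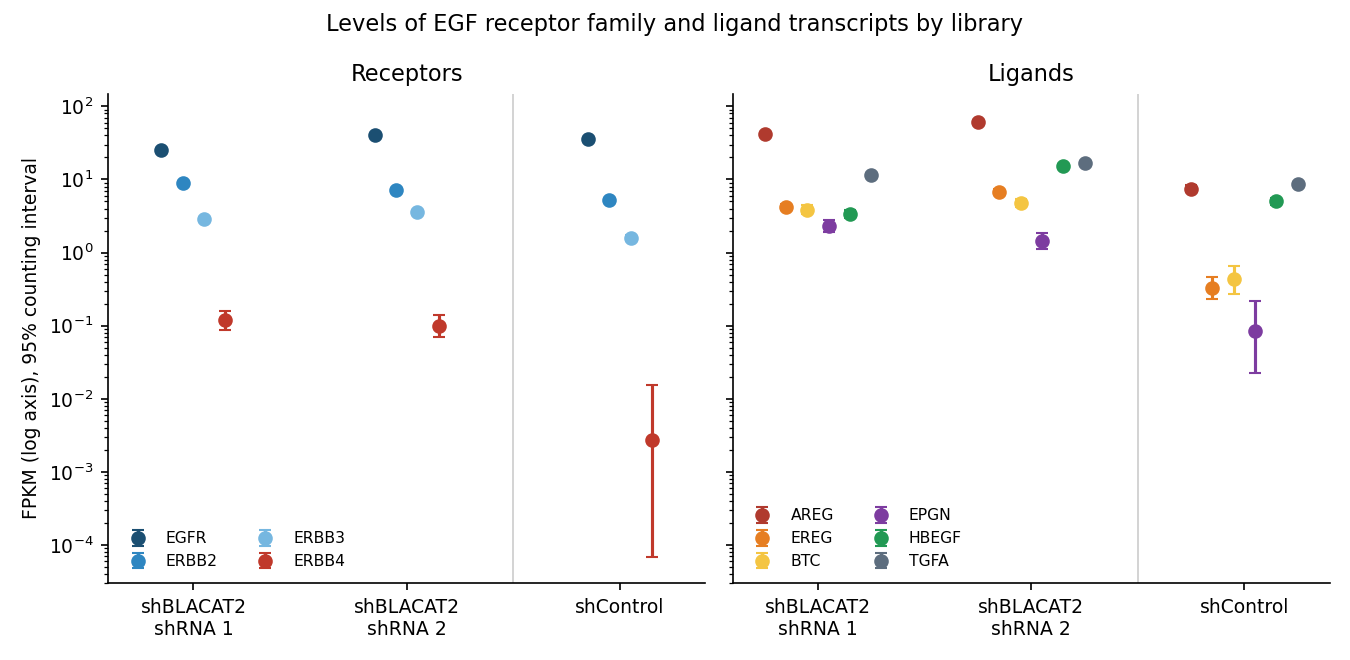
FPKM of the 4 receptors (left) and 6 ligands (right) in each library on a log axis, with 95% counting intervals as bars. AREG heads the ligands in both hairpin libraries and lies beside TGFA in shControl, and ERBB4 lies below every other gene throughout.

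Taking all 10 genes, 5 were at least 2-fold higher than shControl with both hairpins (AREG, EREG, BTC, EPGN and ERBB4) and none was lower by that size. Over all genes tested, 5.29% were higher and 4.5% lower by this rule. ERBB4 and EPGN are among the 5 and had been tested only through their hairpin levels, so neither this count nor those that follow are read as support. None of the 10 passed edgeR's test, which called 0.0397% of all genes, every one of them lower. At an unadjusted p below 0.05 edgeR listed 6 of the 10, the 5 named above and ERBB3, against 10.2% of all genes. DESeq2 passed 4 of the 10, against 3.49% of all genes, and limma-voom passed none of the 10 or of all genes, with 5 of the 10 and 9.41% of all genes at an unadjusted p below 0.05. With 1.5-fold in place of 2-fold ERBB3 joined the 5, when 11.1% of all genes were higher. With shRNA 2 alone 6 of the 10 were at least 2-fold higher, HBEGF being the addition, against 13% of all genes, and with shRNA 1 alone the same 5 were, against 7.92%.

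The FPKM values divide by a gene length, and the members are set beside each other on that scale. The annotation behind this length is not stated, and another length would change ratios, shares and order between genes. The 6 ligands summed to 68.0 and 107 FPKM with shRNA 1 and shRNA 2, against 22.0 FPKM in shControl. The 4 receptors summed to 37.6 and 51.7 FPKM, against 42.8 FPKM. Summed ligand FPKM therefore stood at 1.81 and 2.07 times the summed receptor FPKM in the hairpin libraries, against 0.513 times in shControl. In TMM-scaled counts, not divided by length, the ligands summed to 234 and 363 CPM with shRNA 1 and shRNA 2, against 111 CPM in shControl. The receptors summed to 653 and 855 CPM, against 812 CPM in shControl. The ligand sum averaged 87.6 ± 27.8 FPKM with the hairpins (SD, n = 2), 3.99 times the control value. The receptor sums, 44.7 ± 9.93 FPKM, lay on both sides of the receptor sum of the control. FPKM carries no TMM factor, so this ratio is on another scale than the folds above and is larger than with TMM scaling.

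AREG alone made up 62.5% and 57.6% of the summed ligand FPKM with shRNA 1 and shRNA 2, against 34.3% in shControl. The 4 ligands of chromosome 4 together made up 77.8% and 69.7%, against 38.1% in shControl. TGFA made up 17.2% and 15.9%, against 39.1%, although its own level was not lower. The ligands that also bind ERBB4 (EREG, BTC and HBEGF) made up 16.9% and 25.2% of the ligand FPKM, against 26.3% in shControl. Of the receptor FPKM, EGFR made up 68.3% and 79.1%, against 84.1% in shControl, and ERBB3 7.61% and 6.95%, against 3.69%.

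**Figure D4:**
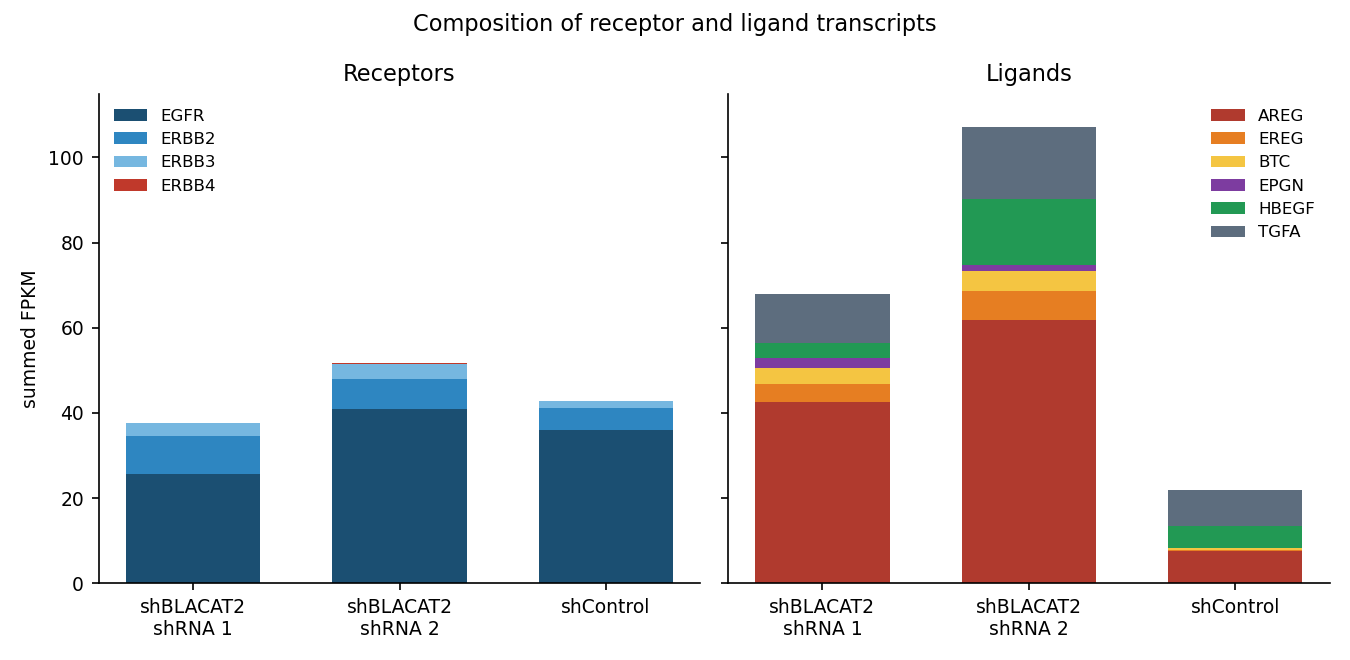
Summed FPKM of the receptors (left) and of the ligands (right) in each library, stacked by gene. The ligand stacks reach 68.0 and 107 FPKM in the hairpin libraries and 22.0 FPKM in shControl, mostly through AREG, and the receptor stacks lie between 37.6 and 51.7 FPKM.

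The order of the 10 genes by FPKM also differed. With both hairpins AREG came first (42.5 and 61.7 FPKM) and EGFR second (25.7 and 40.9 FPKM), followed by TGFA (11.7 and 17.0 FPKM). In shControl EGFR came first (36.0 FPKM), followed by TGFA (8.58 FPKM) and AREG (7.52 FPKM), whose counting intervals overlapped. Over the hairpin libraries, the ranges of AREG and EGFR and those of EGFR and TGFA did not overlap. HBEGF (3.40 and 15.4 FPKM) reached from the values of ERBB3 (2.86 and 3.59 FPKM) to those of TGFA, across ERBB2 (8.96 and 7.12 FPKM), EREG (4.24 and 6.81 FPKM) and BTC (3.85 and 4.73 FPKM). The ranges of EREG and BTC overlapped too, so the order of these neighbours is not settled by 2 libraries. EPGN (2.30 and 1.44 FPKM) and ERBB4 came last, although the counting intervals of ERBB3 and EPGN overlapped with shRNA 1. In shControl ERBB2 (5.20 FPKM) and HBEGF (5.01 FPKM) had overlapping counting intervals, as did BTC (0.430 FPKM) and EREG (0.332 FPKM), which stood below ERBB3 (1.58 FPKM) there. EPGN was at 0.0838 FPKM in shControl. Among all tested genes AREG lay at percentiles 96.7 and 98.0 of FPKM in the hairpin libraries, against 74.3 in shControl, and EREG to 57.5 and 68.4, against 10.5.

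The rest of the pathway was described by 7 lists of 75 genes, of which 71 were tested. Of these, 3 were higher and 3 lower by 2-fold or more with both hairpins. None passed edgeR's test (6 at an unadjusted p below 0.05). DESeq2 passed 2, ADAM12 (adjusted p 2.31e-07) and PHLDA1 (4.39e-06). Over all genes tested the shares were 5.29% higher, 4.5% lower, 10.2% at an unadjusted p below 0.05 and 3.49% with DESeq2, and the counts of the 71 genes lay near them. Of the other EGF-family ligands 2 of 5 were tested and neither passed either rule: the ERBB3 and ERBB4 ligand gene NRG1 had 185 and 257 counts with shRNA 1 and shRNA 2, against 145 in shControl, and NRG2 had 53 and 28, against 13. EGF itself had 6 and 14 counts, against 8 in shControl, and NRG3 and NRG4 were as sparse. In the list of ligand shedding, 1 of 8 was lower by 2-fold or more in both hairpin libraries, and 0 were higher. This was ADAM12, a metalloprotease reported to cut HBEGF, with 60 and 103 counts, against 848 in shControl (log2 folds −4.02 and −3.20, edgeR adjusted p = 0.0770). The main sheddase ADAM17, named after its values were seen, had 1017 and 1238 counts, against 967 (log2 folds −0.17 and 0.17).

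Among 16 inhibitors and turnover factors of the receptors, 2 were at least 2-fold higher and 1 lower with both hairpins, and the list medians of −0.07 and 0.19 lay close to those of all genes (0.01 and 0.04). ERRFI1, an inhibitor that binds the EGFR kinase domain and is itself induced by EGFR signalling, had 1712 and 1690 counts with the hairpins, against 637 in shControl (log2 folds 1.18 and 1.22, edgeR adjusted p = 0.274). CBLC, a ubiquitin ligase of the CBL family, had 134 and 135 counts, against 18 (2.54 and 2.61, adjusted p = 0.202). LRIG3, a transmembrane protein related to the ERBB inhibitor LRIG1, had 210 and 211 counts, against 464 (−1.38 and −1.31, adjusted p = 0.264). LRIG1 itself, named after its values were seen, was higher, with 156 and 176 counts, against 75 (0.80 and 1.03). For ERRFI1, CBLC and LRIG3 the hairpin libraries lay close together and apart from the control.

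The cascades below the receptors differed little. None of 14 receptor-proximal adaptors, 11 genes of the RAS to ERK cascade and 10 tested genes of the PI3K to AKT cascade was at least 2-fold away from shControl with both hairpins, and none passed edgeR's test or had an unadjusted p below 0.05. Their medians were −0.20 and −0.19, −0.14 and −0.10, and 0.10 and −0.02 with shRNA 1 and shRNA 2. The phosphatase gene PTPN11 had log2 folds of 0.02 and −0.17, the phospholipase gene PLCG1 −0.56 and −0.60, and the kinase genes MTOR 0.02 and −0.10 and AKT2 0.18 and 0.44. PIK3R2 was listed at 1, 0 and 0 counts and was not tested.

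Of 10 transcripts known to respond to ERK signalling, PHLDA1 was higher and DUSP6 lower by 2-fold or more with both hairpins, and 8 were neither (over all genes 5.29% were higher and 4.5% lower), and the list medians were −0.20 with shRNA 1 and 0.41 with shRNA 2. PHLDA1 had 788 and 1273 counts with the hairpins, against 107 in shControl (log2 folds 2.62 and 3.37, edgeR adjusted p = 0.113). DUSP6, an ERK phosphatase, had 114 and 63 counts, against 243 (−1.32 and −2.10, adjusted p = 0.354).

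**Figure D5:**
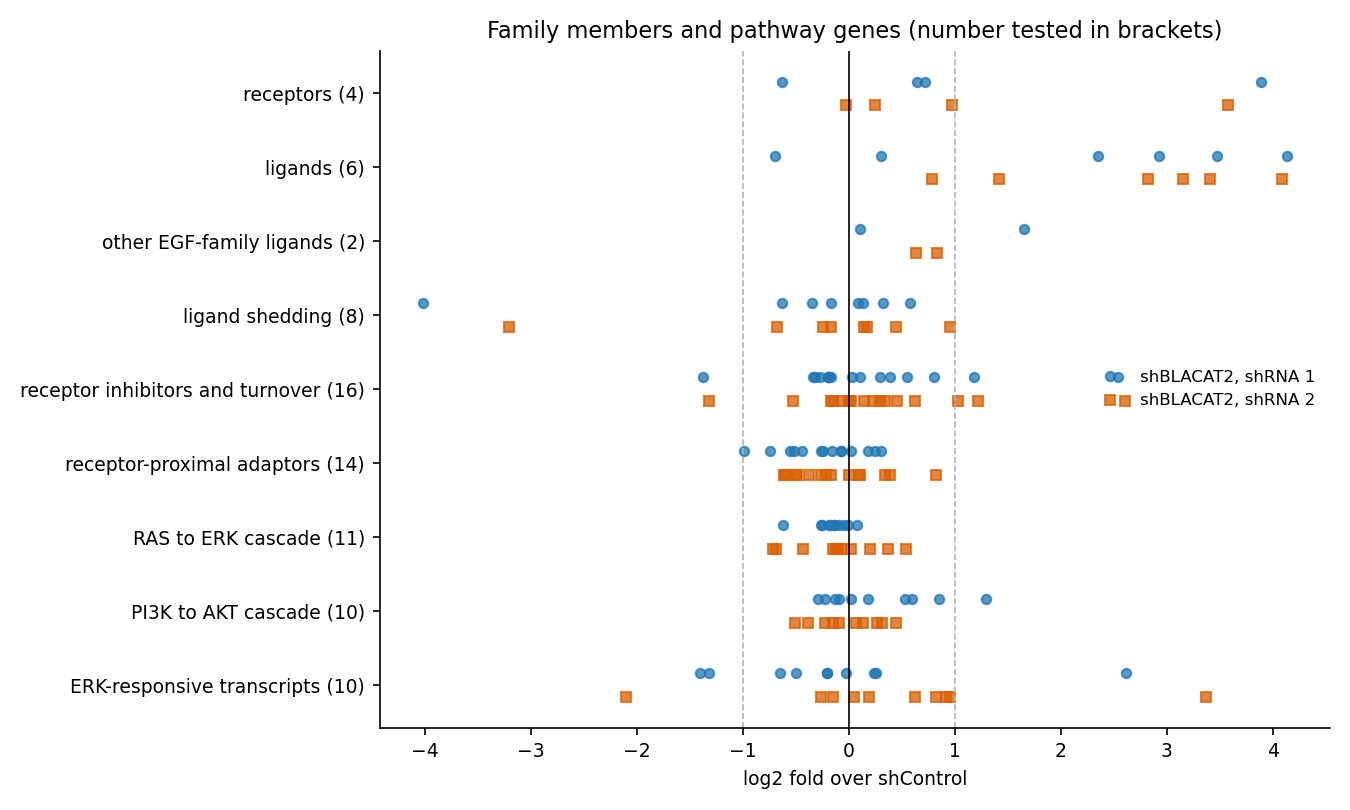
Log2 fold over shControl of each tested gene of the receptors, ligands and 7 pathway lists, with shRNA 1 as circles and shRNA 2 as squares and dashed lines at 2-fold. Of the 6 ligands 4 lie beyond 2-fold with both hairpins, while all tested genes of the adaptor, RAS to ERK and PI3K to AKT lists lie within 2-fold with at least 1 hairpin.

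For each of the 5 members at least 2-fold higher with both hairpins, the genes of most similar pattern were taken by the distance between pairs of log2 folds, among genes within 1 log2 unit in mean level. Each pattern is only 2 folds from 3 libraries that share the control, and the names are a description. For AREG these were the adhesion glycoprotein gene BCAM (distance 0.12, log2 folds 2.43 and 2.73) and the endosome tether gene EEA1 (0.33), among 4444 genes. For EREG they were CHAC1 (0.13) and the semaphorin gene SEMA3D (0.57), and for BTC B3GAT1 (0.01) and CLIC5 (0.28). CTB-147C22.6 was nearest to both EPGN (0.27) and ERBB4 (0.26), followed by ALPPL2 for EPGN (0.57) and the cannabinoid receptor gene CNR1 for ERBB4 (0.51).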

How the data were processed

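PolyA+ RNA of 3 UM-UC-3 libraries was sequenced. The authors deposited whole-number read counts and FPKM values per gene, the latter per gene length and library total, per the file headers. TopHat2 2.0.9 and hg38 are named per the submitters' processing notes; the counting tool, strand setting and annotation release are not stated there or in the labels. The row of TGFB1 was broken over 4 lines and left out, which left 50867 genes. Between libraries FPKM moved by a constant times the count, so libraries were compared by counts and genes by FPKM. FPKM carries no TMM factor, and sums, shares and percentiles of FPKM are given per library without it.

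Counts were scaled with TMM factors (1.02 for shRNA 1, 1.06 for shRNA 2 and 0.924 for shControl). Genes averaging 1 CPM or more in the 3 libraries (15132) were tested with edgeR 4.0.16 (quasi-likelihood, two-sided, Benjamini-Hochberg over all genes, threshold 0.05). Its 1 residual degree of freedom measures how far the hairpin libraries differ, and shControl is taken to vary as much. Log2 folds per hairpin use log2 CPM with a prior count of 2, and a gene was counted by size at 2-fold or more with both hairpins in the same direction. Ratios of counts carry exact conditional binomial 95% intervals and FPKM values exact Poisson 95% intervals; both, and the floor of 3 counts, cover counting error only. The fit was also run on simulated counts in which all 3 libraries varied alike, which cannot check the assumption about shControl. DESeq2 1.42.0, limma 3.58.1 and other scalings, filters, prior counts and fold sizes were alternatives. Gene types and strands come from GENCODE release 29, which held 98.5% of the identifiers. Upstream sequences come from RefSeq (GRCh38.p14), where 9 of the 10 members were found.

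The members and lists were chosen with earlier results of these data known. Named genes are the 10 members and LINC00958, up to 4 genes per pathway list past 2-fold with both hairpins (or the 2 of highest mean CPM), the 2 genes of nearest pattern per member past 2-fold, and genes lying between the outermost chromosome 4 ligands; others are marked as named after their values were seen, and marker genes serve as checks. Some genes that this rule names are not reported here.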

Additional observations from a re-analysis of the deposited data

Results flagged for a closer look

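HBEGF differed in direction between the hairpins. Its log2 fold was −0.69 with shRNA 1 and 1.42 with shRNA 2, the counting intervals lay on opposite sides of no difference, and the signs were opposed under TMM, DESeq2's size factors and library totals alike. Each hairpin has 1 library, so the difference between them was not tested over replicates.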

How the results depend on the processing

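No paired analysis was possible because the control is a lone library without a number. A test without either hairpin library was not possible, since 1 library against 1 leaves no residual degree of freedom, and the control could not be left out. By size, 5 to 6 of the 10 members were at least 2-fold higher with a lone hairpin. With a filter at 5 CPM, 3 were higher, because ERBB4 and EPGN were no longer tested. DESeq2 passed 4 members, against 0 with edgeR and limma. Over 58 alternatives of the members' tests none turned a direction, 54 kept the side of the threshold and 4, all DESeq2, crossed it. The fold of ERBB4 depends on the prior count (4.63 at 0.5 and 2.86 at 5, against 3.73). Of all genes, DESeq2 passed 237 higher and 291 lower, against 0 and 6 with edgeR; 0 lower passed without a filter, at 5 CPM or with limma. Genes at least 2-fold higher numbered 800 (1280 without a filter, 1676 at 1.5-fold, 1199 to 1962 with a lone hairpin), and lower ones 681 (1525 without a filter, 443 at 5 CPM, 1290 at 1.5-fold, 1116 to 1325 with a lone hairpin). Scaling by library totals shifted the all-gene median to 0.14 and 0.24 on the log2 scale and added 1 of the other EGF-family ligands, NRG2, to those at least 2-fold higher.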
